A study of Mus musculus with 12 samples.

Results

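The 10 genes described here encode parts of cohesin, the protein ring that holds sister chromatids together, and the enzymes that close and open it. They were chosen by name from the 24259 genes of the deposited table. *Smc1a*, *Smc1b*, *Smc3*, *Rad21*, *Rec8* and *Stag3* encode ring or ring-binding subunits, *Esco1* and *Esco2* encode the acetyltransferases that make the ring hold, *Espl1* encodes separase and *Pttg1* encodes securin. All 10 symbols were found in the table.

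RNA was sequenced from fully grown oocytes at the germinal vesicle (GV) stage, the stage of arrest in the first meiotic prophase. Oocytes came from C57BL/6J mice of 3 weeks, 46 h after 5 IU of PMSG, and every group received that hormone. KO mice were homozygous for the *Lsm14b* tm1a(KOMP)Mbp allele, a knockout-first insertion, and WT mice carried no such insertion. The insertion was present in all cells of the animal, so the lesion was not limited to the oocyte. By the study's protein assays, LSM14B was detected in oocytes but neither in granulosa cells nor in other tissues. About 1500 oocytes were pooled, and lysates held with cycloheximide, which halts ribosomes on mRNA, were spun through sucrose gradients. Fractions 1 to 10 formed the RNP pool, which holds mRNA with no or few ribosomes, and fractions 11 to 28 formed the polysome pool, which holds mRNA loaded with ribosomes. The groups were WT RNP, KO RNP, WT polysome and KO polysome, with 3 libraries each and 12 in all. The study speaks of independent experiments in general, but the labels do not tie the libraries of a group to separate collections of oocytes, so p-values measure only the spread between these libraries, which may be technical.

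In mitosis the ring is built from SMC1A, SMC3, RAD21 and STAG1 or STAG2. Meiotic cells also build rings with SMC1B, REC8 and STAG3, and in the mouse oocyte the rings loaded before birth must hold until the meiotic divisions. At anaphase the anaphase-promoting complex marks securin for destruction, which frees separase to cut REC8 or RAD21. A fully grown oocyte transcribes little, so the timing with which stored mRNAs enter polysomes largely sets when such proteins are made, and cytoplasmic polyadenylation elements (CPEs) near the 3′ end of an mRNA are known to take part in that timing.

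Short stretches near the 3′ end are shown for *Esco2*, *Pttg1* and *Espl1*, because these mRNAs were called higher in the polysome than in the RNP pool in at least one genotype. The motifs searched on the mRNA strand were the CPE (TTTTAT or TTTTAAT), the poly(A) signal (AATAAA or ATTAAA) and the Pumilio element (TGTANATA), in the last 100 bases of the 3′ UTR of 1 transcript per gene. Of the 8 member genes whose 3′ UTR was long enough for that window, *Esco2* alone held a CPE there. It held 2 of them, while 18.2% of 17964 genes held at least 1. Over the whole 3′ UTR, CPE matches numbered 5 in *Smc3*, 4 in *Esco1*, 3 in *Rad21*, 2 in *Esco2* and 1 in *Smc1a*. The other members held none. The poly(A) signal was found in 6 of the 8 and in 78.9% of all genes. The Pumilio element was found in none of the 8 and in 4.48% of all genes. *Pttg1* has a 3′ UTR of 55 bases and had no such window, and *Rec8*, with 34 bases, had none either. The sites below are written 5′ to 3′ on the mRNA strand, in GRCm38 with GENCODE M21 models, and capitals mark the CPE in *Esco2* and the last poly(A) signal in *Espl1* and *Pttg1*.
Esco2 CPE at chr14:65819079-65819108, minus strand: ttatgcaagcaTTTTAATgctattttctgt
Esco2 CPE at chr14:65819042-65819071, minus strand: ctctttaagtgTTTTATtaaaagttttact
Espl1 poly(A) signal at chr15:102324325-102324354, plus strand: aatgtgaccttAATAAAgatattccaagcc
Pttg1 poly(A) signal at chr11:43420274-43420303, minus strand: tatgtatgttgtattAATAAAgcatttgtg
The *Esco2* elements began 60 and 23 bases before the annotated transcript end. The element nearer that end overlaps an ATTAAA, a poly(A) signal motif that was also searched. A match of letters is a description and not a shown site of binding.

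Levels are FPKM, fragments per kilobase of transcript and per mega (M) of mapped fragments, a scale meant to let different genes be set side by side. Some listed values are not read as levels, as with *Rec8* and *Gapdh* below, so orders of genes and ratios between genes are tentative. Differences were tested on log2(FPKM + 1) with limma over all genes that reached 1 FPKM in at least 3 libraries of a comparison, and p-values were adjusted by the Benjamini-Hochberg method over all those genes, with 0.05 as the threshold. On this scale the change of a low gene is understated. In bulk samples such as these, less RNA per cell and fewer cells that carry it cannot be told apart.

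The targeted gene matched the labels. *Lsm14b* stood at 34.6, 29.3 and 27.4 FPKM in the WT RNP libraries and at 11.3, 15.3 and 13.2 FPKM in the WT polysome libraries, whereas no KO library exceeded 0.893 FPKM. Depth, estimated from the steps between low FPKM values, was 4.73 to 7.86 M fragments (M, mega) per library. KO polysome replicate 2 stood apart, with 34.7% of its summed FPKM in 10 genes against 11.6% to 14.7% in the other 11 libraries. In that library the single gene *Mir300* was listed at 170809 FPKM, and in the other 11 at 0. All 8 oocyte markers were above 1 FPKM in each group, and their summed level was 19766 to 21540 FPKM in the WT and 22745 to 24985 FPKM in the KO polysome libraries, beside 4488 to 4634 FPKM for WT and 5748 to 6242 FPKM for KO among RNP libraries. In KO 5 of the 8 (*Figla*, *Gdf9*, *Nlrp5*, *Oosp1* and *Zp3*) were called higher in the RNP pool and 3 (*Nlrp5*, *Zp2* and *Zp3*) in polysomes, and none was called lower. For this and the marker lists below, the shares over all genes tested were 10.5% higher and 10.2% lower in the RNP pool. In polysomes they were 5.64% and 4.73%. The 12 granulosa and cumulus markers summed to 25.3 to 75.1 FPKM in WT polysome and 78.8 to 103 FPKM in KO polysome libraries, and to 31.3 to 34.8 and 41.0 to 68.6 FPKM in the RNP libraries of WT and KO. Of the 5 tested in polysomes, *Inha*, *Fshr* and *Inhba* rose in KO, and of the 4 tested in the RNP pool *Inha* rose. In polysomes *Fshr* and *Inhba* passed the filter only through KO libraries, as WT reached at most 0.700 and 0.252 FPKM. The same held for *Inha* in the RNP pool, with at most 0.240 FPKM in WT. For these only a rise could be called. *Cyp19a1*, the most abundant of the list in WT, was not called, at 62.0, 19.0 and 32.0 FPKM in WT polysome and 14.6, 23.5 and 34.5 FPKM in KO polysome libraries, while *Star* and *Lhcgr* were listed at 0 in all libraries and *Foxl2* in all but 1. Their part in the results below was not tested. The 11 markers of stroma, endothelium and blood summed to 14.4 to 41.3 FPKM over all groups, and none was called in KO against WT. Most of that sum was *Pecam1*, at 13.2 to 41.0 FPKM. In each group 8 or 9 of the 11 stayed under 1 FPKM in every library. The 8 markers of dividing cells summed to 327 to 338 FPKM in KO polysome against 227 to 305 FPKM in WT polysome libraries and to 248 to 272 FPKM in KO RNP against 221 to 242 FPKM in WT RNP libraries, with *Pcna* and *Rrm2* called higher in KO in the RNP pool.

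Transcripts of the acetyltransferases and of securin were the most abundant of the 10 in WT polysomes. There the order of mean levels was *Esco2* with 147 ± 7.44 FPKM (SD, n = 3), *Pttg1* with 88.4 ± 3.37, *Esco1* with 75.5 ± 9.08, *Rad21* with 24.0 ± 6.69, *Espl1* with 21.7 ± 4.60, *Smc3* with 6.95 ± 1.60, *Smc1a* with 1.84 ± 0.731 and *Smc1b* with 1.74 ± 1.03. The libraries of *Rad21* and *Espl1* overlapped in this order, as did those of *Smc1a* and *Smc1b*, and every other pair of neighbours was separate. *Stag3* averaged 0.313 ± 0.516 FPKM and *Rec8* was listed at 0. In the WT RNP pool *Esco1* led with 117 ± 16.7 FPKM, followed by *Esco2* with 98.5 ± 3.59, *Rad21* with 21.7 ± 4.68 and *Pttg1* with 16.4 ± 1.76.

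**Figure D1:**
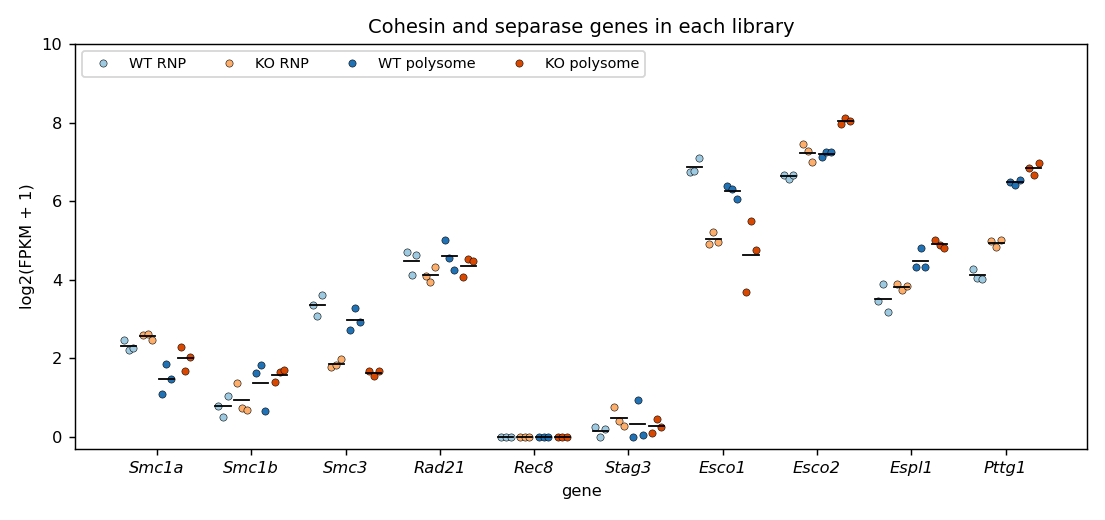
Level of each of the 10 genes, as log2(FPKM + 1), in each of the 12 libraries, where points are libraries and black lines are means of 3. *Esco1* and *Smc3* lie lower in both KO groups than in the WT groups, *Esco2* lies higher in KO within each pool, and *Rec8* is listed at 0 throughout.

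Ring subunits. *Smc3* encodes the SMC subunit common to mitotic and meiotic rings and the one whose head the acetyltransferases modify. Its transcript stood at 9.32, 7.40 and 11.3 FPKM in the WT RNP libraries and at 2.41, 2.58 and 2.95 FPKM in the KO RNP libraries. In the polysome pool it stood at 5.55, 8.69 and 6.61 FPKM in WT and at 2.22, 1.95 and 2.17 FPKM in KO. All 6 KO libraries were therefore below all 6 WT libraries. In the RNP pool *Smc3* fell by 1.49 on the log2 scale (SE 0.30, limma adjusted p = 0.00888), and it stayed past the threshold with any 1 library left out, at adjusted p-values of 0.0109 to 0.0361. In the polysome pool the change was -1.33 (SE 0.41) and missed the threshold, with a limma adjusted p of 0.0743, although without an intensity trend it passed at 0.0362. A KO library held about 46 to 89 *Smc3* fragments by the depth estimate and a WT library about 157 to 339, which cover counting error only since no molecular identifiers were used.

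*Smc1a*, which encodes the mitotic partner of SMC3, stood at 4.57, 3.60 and 3.82 FPKM in WT RNP and at 5.06, 5.15 and 4.56 FPKM in KO RNP libraries. Its polysome levels were 1.14, 2.60 and 1.79 FPKM in WT and 3.86, 2.22 and 3.12 FPKM in KO. The genotypes overlapped in both pools, and neither difference passed the test, with changes of 0.25 (SE 0.30, limma adjusted p = 0.604) in the RNP pool and 0.53 (SE 0.45, limma adjusted p = 0.501) in polysomes. Its meiotic counterpart *Smc1b* ranged from 0.418 to 1.61 FPKM over the 6 RNP libraries and from 0.584 to 2.55 FPKM over the 6 polysome libraries. Too few RNP libraries of *Smc1b* reached 1 FPKM for a test of KO against WT there, and in polysomes the change of 0.22 (SE 0.48) had a limma adjusted p of 0.817. A library held about 11 to 62 *Smc1b* fragments, which gives its values little precision. Processed pseudogenes lie antisense inside *Smc1a* and *Smc1b*, and reads of a gene and its antisense partner cannot be told apart without strand.

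*Rad21*, which encodes the mitotic kleisin that closes the ring, stood at 25.0, 16.3 and 23.8 FPKM in WT RNP libraries and at 16.2, 14.4 and 19.0 FPKM in KO RNP libraries. In polysomes it stood at 31.3, 22.6 and 18.1 FPKM in WT and at 15.9, 22.0 and 21.3 FPKM in KO. The genotypes overlapped in each pool, and neither the change of -0.36 (SE 0.23, limma adjusted p = 0.314) in the RNP pool nor that of -0.25 (SE 0.29, limma adjusted p = 0.637) in polysomes passed the test. The meiotic kleisin *Rec8* was listed at 0 in all 12 libraries. *Gapdh*, a gene every cell uses and one named here after its values were seen, was listed at 0 in 2 libraries and at no more than 0.883 FPKM in the others, so no absence of *Rec8* mRNA is read from these zeros.

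*Stag3*, which encodes the meiotic STAG subunit, ranged from 0 to 0.909 FPKM and reached the filter in no comparison. The mitotic *Stag2* stood at 2.40, 0.831 and 0.941 FPKM in WT RNP, 0.527, 0.103 and 0.439 FPKM in KO RNP, 4.62, 2.99 and 2.79 FPKM in WT polysome and 0.267, 0.232 and 1.76 FPKM in KO polysome libraries. *Stag1* ranged from 0.325 to 3.95 FPKM in WT and from 0.0994 to 0.696 FPKM in KO libraries. Within each pool the *Stag2* values of KO lay below those of WT. In polysomes *Stag2* was tested and not called, and too few RNP libraries reached 1 FPKM for a test there. By the depth estimate a KO library held about 4 to 23 *Stag2* fragments in the RNP pool and 7 to 48 in polysomes.

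Acetyltransferases. The paralogs *Esco1* and *Esco2* moved in opposite directions in KO, and both did so in each pool. *Esco1*, known for acetylating SMC3 through interphase, stood at 106, 108 and 136 FPKM in WT RNP libraries and at 29.2, 36.4 and 30.1 FPKM in KO RNP libraries. In polysomes it stood at 82.7, 78.5 and 65.3 FPKM in WT and at 11.8, 43.9 and 25.9 FPKM in KO. The highest KO library, polysome replicate 2, was still below the lowest WT library. *Esco1* fell by 1.84 in the RNP pool (SE 0.16, limma adjusted p = 0.000121) and by 1.61 in polysomes (SE 0.40, limma adjusted p = 0.0397), both on the log2 scale.

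The RNP call of *Esco1* held with any 1 library left out, at adjusted p-values of 0.000441 to 0.00091. The polysome call held without KO polysome replicate 2 (adjusted p = 0.0198) and was lost without KO polysome replicate 1 (0.056) or 3 (0.0937) and without WT polysome replicate 1 (0.0869), 2 (0.0793) or 3 (0.0627), with changes of -2.04 to -1.13. It was also lost with a pseudocount of 0.1 (adjusted p = 0.0584), with no filter on low values (0.112) and without the intensity trend of the limma fit (0.103).

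*Esco2*, which encodes the acetyltransferase tied to DNA replication, stood at 99.8, 94.4 and 101 FPKM in WT RNP and at 173, 155 and 126 FPKM in KO RNP libraries. In polysomes it stood at 138, 150 and 152 FPKM in WT and at 249, 277 and 261 FPKM in KO. No KO library overlapped a WT library of the same pool. *Esco2* rose by 0.60 in the RNP pool (SE 0.13, limma adjusted p = 0.0122) and by 0.83 in polysomes (SE 0.12, limma adjusted p = 0.00556), which is 1.54-fold and 1.79-fold as a ratio of mean FPKM. The polysome call held with any 1 library left out, at 0.013 to 0.0324. The RNP call was lost without KO RNP replicate 1 (0.0567) or KO RNP replicate 2 (0.0502), and without an intensity trend both calls were lost, at 0.0763 in the RNP pool and 0.0715 in polysomes.

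The rank of the 2 paralogs turned in the RNP pool, while in polysomes *Esco2* led in both genotypes. The log2 ratio of *Esco2* to *Esco1* inside a library, taken on FPKM + 1, was -0.09, -0.20 and -0.42 in WT RNP and 2.53, 2.06 and 2.03 in KO RNP libraries. In polysomes it was 0.73, 0.93 and 1.20 in WT and 4.29, 2.63 and 3.28 in KO. KO exceeded WT by 2.44 in both pools, and the groups were separate. With 3 libraries against 3 the exact permutation test cannot give a p under 0.1, and it gave that value in each pool (0.2 after adjustment over the 8 ratios tested). The mean ratios correspond to 0.848 *Esco2* per *Esco1* in WT RNP, 4.61 in KO RNP, 1.94 in WT polysomes and 10.5 in KO polysomes.

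**Figure D2:**
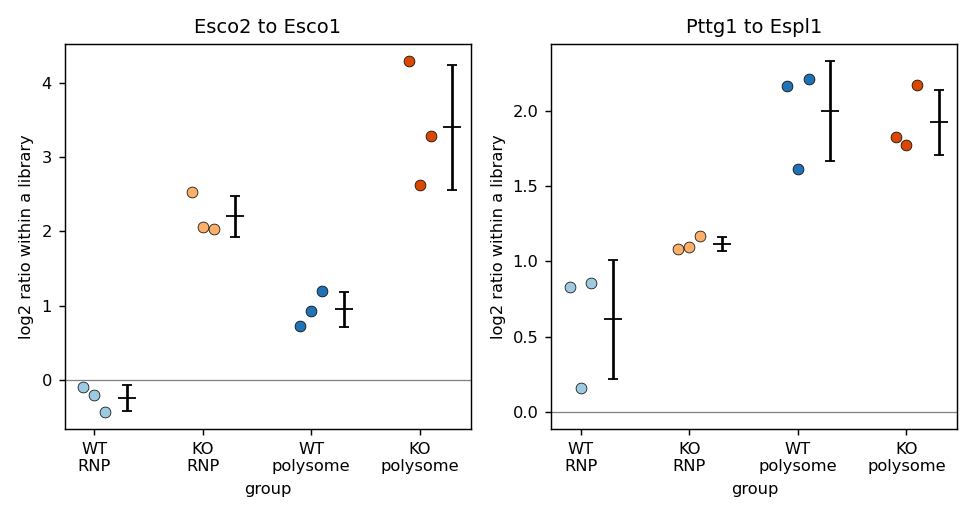
Log2 ratio of *Esco2* to *Esco1* (left) and of *Pttg1* to *Espl1* (right) inside each library, where points are libraries and bars give the mean and SD of 3. The *Esco2* to *Esco1* ratio of every KO library exceeds that of every WT library of the same pool, while the *Pttg1* to *Espl1* ratio in polysomes overlaps between genotypes.

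Separase and securin. *Pttg1*, which encodes securin, stood at 18.5, 15.5 and 15.3 FPKM in WT RNP libraries and at 30.5, 27.6 and 31.3 FPKM in KO RNP libraries. In polysomes it stood at 88.9, 84.8 and 91.5 FPKM in WT and at 114, 101 and 125 FPKM in KO. KO libraries were above WT libraries in both pools. Securin mRNA rose by 0.82 in the RNP pool (SE 0.18, limma adjusted p = 0.013) and its polysome change of 0.35 (SE 0.15) did not pass (limma adjusted p = 0.174). The RNP call was lost without KO RNP replicate 1 (0.0594) or KO RNP replicate 3 (0.0608).

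*Espl1*, which encodes separase, the protease that securin holds in check, stood at 9.97, 13.8 and 7.99 FPKM in WT RNP libraries and at 13.8, 12.4 and 13.4 FPKM in KO RNP libraries. In polysomes it stood at 19.1, 27.0 and 18.9 FPKM in WT and at 31.5, 28.8 and 27.1 FPKM in KO. The RNP values overlapped, and the polysome values were separate by a narrow margin. Neither change passed, with 0.32 (SE 0.26, limma adjusted p = 0.423) in the RNP pool and 0.43 (SE 0.25, limma adjusted p = 0.311) in polysomes. A processed pseudogene lies antisense to part of *Espl1*.

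The log2 ratio of *Pttg1* to *Espl1* inside a library averaged 2.00 ± 0.331 (SD, n = 3) in WT polysomes and 1.92 ± 0.214 in KO polysomes, a difference of -0.07 that was smaller than the spread between libraries (exact permutation p = 0.9) and turned to 0.034 without WT polysome replicate 3. In the RNP pool it averaged 0.62 ± 0.396 in WT and 1.12 ± 0.0469 in KO, a difference of 0.50 with separate groups and the smallest exact permutation p of 0.1. Without WT RNP replicate 2 the RNP difference was 0.27.

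The other ratios were set by low levels. The *Smc1b* to *Smc1a* ratio differed between KO and WT by -0.31 in polysomes and -0.09 in the RNP pool, with exact permutation p-values of 0.5 and 0.6. Its direction was not stable, as the RNP difference was 0.071 without WT RNP replicate 3 and 0.040 without KO RNP replicate 2, and the polysome difference was -0.67 without WT polysome replicate 3 and about 0 without WT polysome replicate 1. The *Stag3* to *Stag2* ratio was higher in KO by 1.38 in polysomes, where the groups overlapped (exact permutation p = 0.2), and by 1.11 in the RNP pool, where they did not (exact permutation p = 0.1). *Rec8* to *Rad21* was not computed because *Rec8* was listed at 0.

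Of the 10 genes, 7 were tested in the RNP pool and 8 in polysomes. Within the RNP pool *Esco2* and *Pttg1* were called higher in KO, against 10.5% of the 9931 genes tested, and *Esco1* and *Smc3* were called lower, against 10.2%. Within polysomes *Esco2* was called higher, against 5.64% of the 9536 genes tested, and *Esco1* was called lower, against 4.73%. Without KO polysome replicate 2, the library that stood apart, both were still called, at limma adjusted p-values of 0.0324 and 0.0198. The median change of the member genes tested was 0.25 in the RNP pool and 0.28 in polysomes, beside 0.05 and 0.10 for all genes tested.

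**Figure D3:**
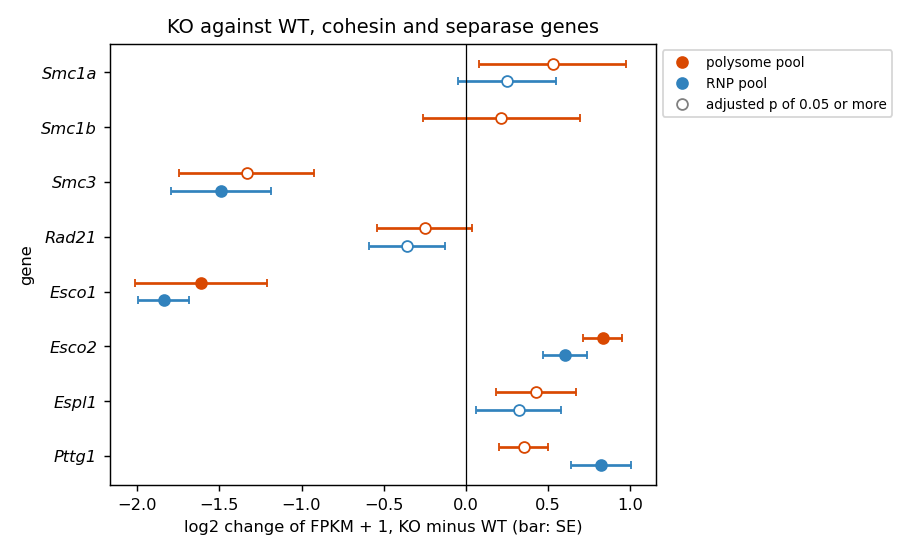
Change of KO against WT in each pool for the 8 genes tested, as log2 of FPKM + 1, with bars for the SE and open points for an adjusted p of 0.05 or more. *Esco1* and *Smc3* lie left of 0 in both pools and *Esco2* and *Pttg1* right of it, while *Smc1b* has no RNP point because it was not tested there.

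Distribution between pools. *Pttg1* showed the largest rise from the RNP to the polysome pool of the 8 genes tested in both genotypes. FPKM is relative to the total of each library, so these changes do not give the share of an mRNA held in each pool. In WT its mean level was 88.4 FPKM in polysomes and 16.4 FPKM in the RNP pool, a rise of 2.36 on the log2 scale (SE 0.20, limma adjusted p = 0.000193). In KO the means were 114 and 29.8 FPKM, a rise of 1.89 (SE 0.14, limma adjusted p = 2.08e-05). These calls held with any 1 library left out, at up to 0.00128 in WT and 0.000206 in KO.

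*Esco2* was also higher in polysomes, by 0.57 in WT (SE 0.13, limma adjusted p = 0.0237) and by 0.80 in KO (SE 0.13, limma adjusted p = 0.00155). The KO call held with any 1 library left out, and the WT call held only without WT polysome replicate 1, at 0.0369, the others giving up to 0.0856. With the replicate number as a block the WT change of *Esco2* had an adjusted p of 0.0572. *Espl1* was higher in KO polysomes by 1.08 (SE 0.18, limma adjusted p = 0.00193) and in WT polysomes by 0.98 (SE 0.32), where it missed the threshold at 0.0794 although the 3 polysome libraries exceeded the 3 RNP libraries.

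*Esco1* was the only member called lower in polysomes. In WT it fell by 0.62 (SE 0.17, limma adjusted p = 0.0449), a call that was lost with any 1 library left out, at 0.0529 to 0.154, and with the replicate block, at 0.0873. In KO the *Esco1* change of -0.40 (SE 0.39, limma adjusted p = 0.489) did not pass, and the pools overlapped. *Rad21*, *Smc1a*, *Smc1b* and *Smc3* were not called between pools in either genotype, with changes of 0.13, -0.84, 0.59 and -0.38 in WT and of 0.24, -0.56, 0.64 and -0.22 in KO, in that order.

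In WT, 2 of 8 members were called higher in polysomes, against 7.97% of the 9574 genes tested, and 1 lower, against 6.72%. In KO, 3 of 8 were called higher, against 15.5% of the 9851 genes tested, and 0 lower, against 13.8%. The median change of the members was 0.35 in WT and 0.44 in KO, beside -0.09 and -0.04 for all genes tested.

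**Figure D4:**
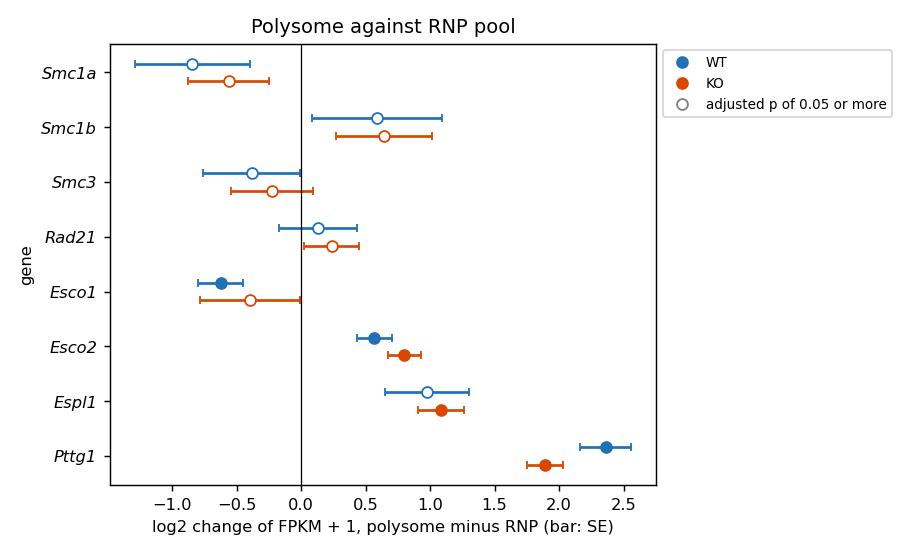
Change of the polysome against the RNP pool in WT and in KO, as log2 of FPKM + 1, with bars for the SE and open points for an adjusted p of 0.05 or more. *Pttg1* lies farthest right in both genotypes, at 2.36 in WT and 1.89 in KO, and *Esco1* lies left of 0.

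Whether the distribution between pools differed between genotypes was tested by the genotype-by-pool interaction, fitted to all 12 libraries. No member of the 8 tested passed by limma, beside 0.237% of the 10949 genes tested. An unadjusted limma p under 0.05 was found for 1 member, beside 1220 of all 10949 genes. That member was *Pttg1*, with a polysome-to-RNP ratio lower in KO by -0.47 (SE 0.22, limma adjusted p = 0.442). The other 7 differed by 0.05 to 0.28, with SEs of 0.17 to 0.58. A p above the threshold does not show that the distributions were alike.

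Partners and related complexes. A list of 24 cohesin partners and regulators gave 15 genes tested in each pool. In the RNP pool 1 was called higher and 2 lower in KO, beside 10.5% and 10.2% of all genes tested, and in polysomes 2 were called higher and 0 lower, beside 5.64% and 4.73%. With 15 genes tested, nothing particular to the list is read from these counts. *Sycp3*, which encodes a part of the meiotic chromosome axis on which cohesin sits, stood at 1.94, 5.46 and 2.24 FPKM in WT RNP and 16.9, 14.5 and 19.3 FPKM in KO RNP libraries, and at 8.73, 4.24 and 10.2 FPKM in WT and 44.9, 38.4 and 27.0 FPKM in KO polysomes. It rose by 2.17 (SE 0.35, limma adjusted p = 0.00308) in the RNP pool and by 2.16 (SE 0.37, limma adjusted p = 0.0106) in polysomes, and both calls held with any 1 library left out.

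*Wapal*, which encodes the factor that releases cohesin from chromatin, stood at 54.7, 82.5 and 66.1 FPKM in WT RNP and 38.8, 42.0 and 41.4 FPKM in KO RNP libraries. It fell by 0.70 there (SE 0.17, limma adjusted p = 0.0187), a call held in 3 of 6 fits with 1 library left out, which reached 0.0692. *Gsg2*, which encodes haspin, a histone kinase at centromeres, fell by 0.78 in the RNP pool (SE 0.14, limma adjusted p = 0.00434), from 181, 196 and 240 FPKM in WT to 129, 103 and 124 FPKM in KO. *Plk1*, which encodes a kinase that helps to remove cohesin, rose by 0.64 in polysomes (SE 0.12, limma adjusted p = 0.0145), from 144, 150 and 160 FPKM in WT to 255, 230 and 226 FPKM in KO. The *Plk1* call held in 3 of 6 fits with 1 library left out, which reached 0.0581.

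*Cdca5*, which encodes sororin, the factor that protects acetylated cohesin from release, was the most abundant of this list, at 400 to 591 FPKM over all libraries. It was not called between genotypes in either pool and was higher in KO polysomes than in the KO RNP pool by 0.36 (SE 0.10, limma adjusted p = 0.0216), a call held in 1 of 6 fits with 1 library left out. In KO *Mau2*, which encodes a part of the cohesin loader, was higher in polysomes by 0.78 (SE 0.23, limma adjusted p = 0.0287), *Plk1* by 0.52 (SE 0.10, limma adjusted p = 0.0037) and *Sycp3* by 1.05 (SE 0.22, limma adjusted p = 0.00733). *Gsg2* was lower in polysomes in both genotypes, by -1.51 in WT (SE 0.22, limma adjusted p = 0.00265) and by -1.57 in KO (SE 0.26, limma adjusted p = 0.00205). Between pools 0 of the 15 list genes tested were called higher and 1 lower in WT, beside 7.97% and 6.72% of all genes tested, and 4 were called higher and 1 lower in KO, beside 15.5% and 13.8%.

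Condensin and the SMC5/6 complex are built on the same kind of SMC ring. Of the 13 genes of these complexes listed, 10 were tested in the RNP pool and 11 in polysomes. The only one called between genotypes was *Ncapg2*, a condensin II subunit, which fell by 0.60 in the RNP pool (SE 0.16, limma adjusted p = 0.0304). That call held in 1 of 6 fits with 1 library left out. Of all genes tested, 10.5% were called higher and 10.2% lower in the RNP pool, and 5.64% and 4.73% in polysomes. Between pools, the condensin I subunits *Ncaph* and *Ncapg* were higher in KO polysomes by 1.38 and 0.80, with limma adjusted p-values of 0.00227 and 0.0102. *Nsmce2*, a SUMO ligase of the SMC5/6 complex, was lower in polysomes by -1.15 in WT (limma adjusted p = 0.0246) and by -0.98 in KO (0.0097), and *Nsmce1* was lower by -1.37 in KO (0.0165). Between pools 0 of 10 were called higher and 1 lower in WT, beside 7.97% and 6.72% of all genes tested. In KO 2 of 11 were called higher and 2 lower, beside 15.5% and 13.8%. With so few genes tested, nothing particular to these complexes is read from the counts. No gene of either list was called in the interaction of genotype and pool. There 1 of 18 partners and 1 of 11 genes of the other complexes had an unadjusted limma p under 0.05, beside 1220 of all 10949 genes.

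**Figure D5:**
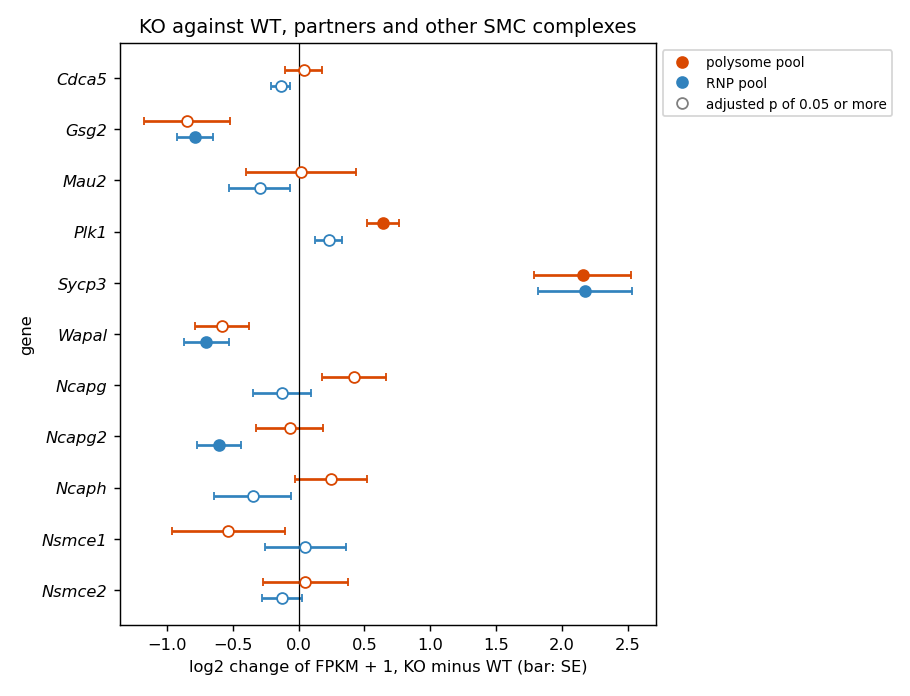
Change of KO against WT in each pool for the partners and genes of other SMC complexes that were called in any of the 5 comparisons, as log2 of FPKM + 1, with bars for the SE and open points for an adjusted p of 0.05 or more. *Sycp3* lies near 2.2 in both pools, *Wapal*, *Gsg2* and *Ncapg2* have filled RNP points left of 0, and *Plk1* has a filled polysome point right of 0.

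The genes whose levels followed a member most closely over the 12 libraries were sought for the 3 members with the widest range of group means, among 6677 genes whose mean reached 5 FPKM. For *Pttg1* these were *Klhl8* (Pearson r = 0.995), *Bpgm* (0.991) and *Padi6* (0.991). For *Esco1* they were *Llgl1* (0.977), *4921524J17Rik* (0.970) and *Exosc3* (0.968). For *Smc3* they were *Pfdn4* (0.966), *Mterf1a* (0.966) and *Dcp1a* (0.966). These values describe 12 points that share libraries and 4 groups.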

How the data were processed

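Polysome and RNP pools of WT and KO oocytes were sequenced with a Smart-seq2 protocol. Reads were mapped by the authors to mm10, using TopHat2 2.0.13 and they calculated the deposited FPKM per gene symbol with Cufflinks 2.2.1, as the labels and processing notes name them. FPKM is scaled to transcript length and to mapped fragments, so it holds no counts. The authors' Cuffdiff changes, p-values and q-values in the same table were not used. The sources differ on the top sucrose concentration and on the library kit.

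Groups came from the sample titles. Tests used limma 3.58.1 in R 4.3.3 (two-sided, moderated by empirical Bayes, with an intensity trend) on log2(FPKM + 1). Ratios inside a library were tested by exact permutation in Python 3.11.15 with scipy 1.17.1. The genes named are the 10 members, *Lsm14b*, each gene of the 2 wider lists called in any of the 5 comparisons, *Stag1*, *Stag2* and the 3 genes most like each of 3 members. Markers of the 4 cell type lists are named where they were called or bear on a list. These markers, *Gapdh* and *Mir300* were picked after their values were seen. Members and lists were chosen with earlier results of these data known.

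Alternatives were pseudocounts of 0.1 and 5, no filter, a filter at 5 FPKM, rescaling of libraries to 1 median, quantile normalization, a replicate block, no intensity trend, and each library left out. Gene models came from GENCODE M21 on GRCm38. Depth was estimated by taking the effective length as transcript length less 200 bases, so numbers of fragments are approximate.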

Additional observations from a re-analysis of the deposited data

How the results depend on the processing

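In the RNP pool the number of members called lower in KO was 2 under each alternative. The number called higher was 1 without an intensity trend and 0 to 2 with 1 library left out. In polysomes the number called lower was 0 with a pseudocount of 0.1, 0 with no filter and 0 to 1 with 1 library left out, and the number called higher was 0 without an intensity trend. Without that trend 1 gene was still called lower in polysomes, but it was *Smc3* (adjusted p = 0.0362) in place of *Esco1* (0.103). In polysome against RNP in WT the number called higher was 1 with quantile normalization, 1 without an intensity trend and 1 to 2 with 1 library left out, and the number called lower was 0 with no filter, 0 without an intensity trend and 0 with any 1 library left out. With the replicate block that comparison called 1 member higher and 0 lower, and the block changed no other number of members called. Libraries sharing a number showed no joint deviation from their group means (correlations of -0.02 to 0.03 over 10949 genes), so the numbers were not taken to pair the libraries.

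Changes of members that did not pass also turned direction. *Smc1b* in polysomes became -0.030 with quantile normalization and ranged from -0.14 to 0.45 with 1 library left out. With 1 library left out, the change in KO of the polysome-to-RNP ratio ranged from -0.30 to 0.28 for *Smc1b*, -0.069 to 0.31 for *Rad21*, -0.20 to 0.71 for *Esco1* and -0.088 to 0.27 for *Espl1*. Polysome against RNP ranged from -0.072 to 0.31 for *Rad21* in WT and from -0.82 to 0.085 for *Esco1* in KO. The KO minus WT ratio of *Stag3* to *Stag2* was 2.82 in polysomes and 3.00 in the RNP pool with a pseudocount of 0.1, and 0.54 and 0.33 with a pseudocount of 5, as both genes are low. That of *Smc1b* to *Smc1a* in the RNP pool was 0.015 with a pseudocount of 0.1 and -0.29 to 0.071 with 1 library left out, and that of *Pttg1* to *Espl1* in polysomes ranged from -0.26 to 0.034. The low estimated number of fragments limits *Smc1b*, *Stag1*, *Stag2* and *Stag3*. The cause of the other shifts was not tested.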
